A study of Mus musculus with 11 samples.

Results

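The 10 genes described here encode ligands, receptors, a feedback inhibitor and a target of TGF-beta and activin signalling: Tgfb1, Tgfb2, Tgfb3, Inhba, Inhbb, Inhbe, Tgfbr1, Tgfbr2, Smad7 and Tgfbi. They were picked by gene symbol from the 31053 genes counted in each section, and each symbol matched a gene with counts. Spatial transcriptomics was performed on mouse livers after acetaminophen (APAP) overdose, and the question asked here was how this pathway changed over the time course and where in the tissue it did so. The data were 11 snap-frozen sections on Visium arrays, which capture the 3' ends of transcripts on a grid of barcoded spots, and a spot is a small area that can hold several cells of different types. The sections were 3 labelled Uninjured at 0 h (replicates 2, 3 and 4) and, labelled POD, 2 taken at 24 h, 2 at 36 h and 4 at 48 h, lettered from A within each time. The study's methods name C57BL/6JCrl mice, mostly male young adults, and intraperitoneal APAP after a fast for the injured animals. No transgene or virus is named for these livers. Those methods state n = 1 for mouse liver at each time, so the sections of a time point may share an animal, every p-value below then covers only the spread between sections, and animal and time cannot be told apart.

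TGF-beta ligands are secreted in a latent form held by a prodomain and matrix proteins, and once released they bind a type II receptor, which recruits a type I receptor that phosphorylates SMAD proteins. Activins are dimers of inhibin beta subunits that signal through related receptors to the same SMADs. In liver, TGF-beta is known for driving stellate cells to become collagen-producing myofibroblasts and for restraining hepatocyte division, and activin A also restrains hepatocyte growth, while activin E and activin C subunits are made mainly by hepatocytes.

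Passing spots per section numbered 1490 to 3466, with 31292663 to 67045372 unique molecular identifiers (UMIs, counted transcripts) in all. Levels are given as CPM, UMIs per 1000000 after TMM scaling of the section totals. The hepatocyte marker list (Alb, Ttr, Trf, Hp, Hnf4a and Apoa1) was detected with 6 of 6 genes in every section and summed to 116670 to 121830 CPM at 0 h. It summed to 95431 to 111720 CPM at 24 h, 92183 to 113340 at 36 h and 84853 to 103260 at 48 h. The mononuclear phagocyte list (Lyz2, Csf1r, Cd68, Adgre1, C1qa and Ms4a7) summed to 427 to 468 CPM at 0 h, 501 to 521 at 24 h, 391 to 654 at 36 h and 679 to 1307 at 48 h. The myofibroblast list (Acta2, Col1a1, Col1a2 and Col3a1) summed to 37.5 to 45.9, 70.4 to 99.4, 124 to 384 and 484 to 1185 CPM at the same times. All genes of these 3 lists had UMIs in every section. Section 36 h A stood apart from 36 h B in several of the genes below and in the myofibroblast list.

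Tgfb1, the main TGF-beta ligand of injured liver, was higher at every time after APAP. Its level was 9.31, 10.7 and 11.5 CPM at 0 h, 22.2 and 23.7 at 24 h, 16.2 and 26.7 at 36 h, then 18.7, 16.3, 26.2 and 21.96 at 48 h. The 3 uninjured sections lay below all 8 injured sections. Against 0 h it rose to 22.9 ± 1.098 CPM (SD, n = 2) at 24 h from 10.5 ± 1.11 CPM (SD, n = 3) (log2 fold change = 1.13 ± 0.22 (SE), adjusted p = 0.00263), and it was also called at 36 h (log2 fold change = 1.03 ± 0.22 (SE), adjusted p = 0.00777) and 48 h (log2 fold change = 0.99 ± 0.19 (SE), adjusted p = 0.00225). The call at 36 h was lost when section 36 h B was left out (log2 fold change = 0.63, adjusted p = 0.0865). Tgfb1 lies at chr7:25687002-25705077 (mm10/GRCm38, plus strand, GENCODE M21).

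Tgfb2 and Tgfb3, the other ligands of the family, were counted from few UMIs and also had their highest mean at 24 h. The level of Tgfb2 was 0.528, 0.442 and 0.565 CPM at 0 h, 2.84 and 1.4995 at 24 h, 0.782 and 1.598 at 36 h, then 0.927, 1.15, 2.01 and 1.14 at 48 h, from 20 to 140 UMIs a section. All 8 injured sections lay above the 3 uninjured ones. Tgfb2 was called at 24 h (log2 fold change = 2.10 ± 0.42 (SE), adjusted p = 0.00279) and 48 h (log2 fold change = 1.36 ± 0.37 (SE), adjusted p = 0.0134), while 36 h missed the threshold (adjusted p = 0.0584). It passed at 36 h by DESeq2 (1.21, adjusted p = 0.0403), with total-count scaling (1.65, adjusted p = 0.0102) and without 48 h C (1.22, adjusted p = 0.0391). Without section 0 h 3 the call at 48 h was lost (1.26, adjusted p = 0.0574). The level of Tgfb3 was 0.880, 1.25 and 0.960 CPM at 0 h, 6.73 and 3.76 at 24 h, 0.724 and 3.88 at 36 h, then 1.42, 1.29, 3.69 and 2.47 at 48 h. At 24 h both sections stood above the uninjured ones, whereas 36 h A lay below all of them and 36 h B far above. Tgfb3 was called at 24 h (log2 fold change = 2.34 ± 0.62 (SE), adjusted p = 0.0126), and this call was lost without section 24 h A (1.86, adjusted p = 0.0964). With 36 h A left out, the log2 fold change at 36 h was 1.65 for Tgfb2 and 1.90 for Tgfb3. With 36 h B left out instead, that of Tgfb3 was -0.52. With all sections Tgfb3 was not called at 36 h or 48 h (adjusted p = 0.199 and 0.127), and at 48 h the lowest sections came close to the highest uninjured one. The gene was called at 48 h with total-count scaling (1.63, adjusted p = 0.0242), with only the 0 h and 48 h sections in the fit (1.11, adjusted p = 0.0381) and without either 36 h section (1.10, adjusted p = 0.0439 and 1.10, adjusted p = 0.0444). The 3' end of Tgfb3 overlaps Ttll5 on the opposite strand, and the sources used here do not state whether counting used strand.

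The 3 inhibin beta genes followed different courses. Inhbb, the subunit of activin B, rose most of the 10 genes at 24 h. Its level was 1.47, 3.37 and 1.98 CPM at 0 h, 12.6 and 25.4 at 24 h, 1.42 and 15.04 at 36 h, then 3.95, 3.12, 3.16 and 1.49 at 48 h. Both 24 h sections lay well above the uninjured ones, 36 h A lay below them and 36 h B above, and the 48 h sections overlapped the uninjured range. The rise at 24 h was called (log2 fold change = 3.05 ± 0.77 (SE), adjusted p = 0.0109), as was the fall from 24 h to 48 h (log2 fold change = -2.69 ± 0.69 (SE), adjusted p = 0.0145). Both calls were lost without section 24 h B (2.46, adjusted p = 0.0751 and -2.11, adjusted p = 0.111). At 36 h against 0 h the gene missed the threshold (adjusted p = 0.0992). Its log2 fold change there was 2.70 with 36 h A left out and -0.69 with 36 h B left out.

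Inhba, the subunit of activin A, was at 13.3, 11.5 and 22.6 CPM at 0 h, 32.02 and 23.6 at 24 h, 10.1 and 2.65 at 36 h, then 5.26, 10.8, 5.12 and 15.4 at 48 h. Both 24 h sections were above the highest uninjured section, the 36 h sections were below the lowest one, and the 48 h sections spread from below to within the uninjured range. No comparison of Inhba with 0 h passed the test (adjusted p = 0.281 at 24 h, 0.145 at 36 h and 0.222 at 48 h). Left without 36 h A, the difference at 36 h was called (log2 fold change = -2.57, adjusted p = 0.0446). From 24 h to 48 h Inhba fell (log2 fold change = -1.61 ± 0.54 (SE), adjusted p = 0.0430). That call did not survive leaving out 8 of the 11 sections singly, among them each 24 h section (-1.37, adjusted p = 0.207 without A and -1.81, adjusted p = 0.0959 without B), and was also lost with total-count scaling (-1.41, adjusted p = 0.0692) and with no low-count filter (-1.57, adjusted p = 0.109).

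Inhbe, the subunit of activin E, rose and then fell below its starting level. Its level was 14.6, 17.8 and 18.6 CPM at 0 h, 43.96 and 35.5 at 24 h, 19.5 and 19.03 at 36 h, then 10.8, 13.9, 10.2 and 10.9 at 48 h. The 24 h sections stood above all others, the 36 h sections lay just above the uninjured range, and all 4 at 48 h lay below it. The rise at 24 h (log2 fold change = 1.23 ± 0.15 (SE), adjusted p = 0.000201), the fall from 24 h to 36 h (log2 fold change = -1.05 ± 0.17 (SE), adjusted p = 0.00652) and the lower level at 48 h than at 0 h (log2 fold change = -0.57 ± 0.13 (SE), adjusted p = 0.00536) passed the test, and 36 h did not differ from 0 h past the threshold (adjusted p = 0.406). With total-count scaling in place of TMM the difference at 48 h from 0 h was -0.04, adjusted p = 0.782. The neighbouring gene Inhbc, the subunit of activin C, is the relative of Inhbe in the wider list: its level was 80.3, 51.8 and 84.7 CPM at 0 h, 64.1 and 90.04 at 24 h, 57.5 and 58.5 at 36 h, then 52.7, 56.7, 40.4 and 63.6 at 48 h. The groups of Inhbc overlapped, and it was not called against 0 h at 24 h, 36 h or 48 h (adjusted p = 0.781, 0.338 and 0.0946).

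Inhbe and Inhbc lie side by side on the minus strand of chromosome 10, at chr10:127348857-127354411 and chr10:127356322-127370431 in GENCODE M21, with 1910 bases between the gene models. The 250 bases before each RefSeq start (GRCm38.p6, minus strand) are shown because Inhbe was called over time and its neighbour was not, although a difference between the 2 genes was not tested and their log2 fold changes at 48 h were -0.57 and -0.44. The Inhbe window is chr10:127351849-127352098, inside the longer GENCODE model of that gene, and the Inhbc window is chr10:127370549-127370798. Capitals mark matches, on either strand, to CAGAC, the SMAD box, and to TGATGCAA, an element bound by dimers of C/EBP and ATF factors. The matches shown do not overlap each other.
Inhbe promoter: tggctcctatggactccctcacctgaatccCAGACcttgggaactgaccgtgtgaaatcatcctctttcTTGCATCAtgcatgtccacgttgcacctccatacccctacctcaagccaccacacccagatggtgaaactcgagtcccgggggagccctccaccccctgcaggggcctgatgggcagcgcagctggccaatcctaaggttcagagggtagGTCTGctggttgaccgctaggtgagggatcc
Inhbc promoter: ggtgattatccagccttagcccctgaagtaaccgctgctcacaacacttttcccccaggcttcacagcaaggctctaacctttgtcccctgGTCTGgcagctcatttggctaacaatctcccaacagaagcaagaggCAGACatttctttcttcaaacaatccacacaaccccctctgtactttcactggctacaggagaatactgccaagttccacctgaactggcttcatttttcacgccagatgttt
The Inhbe window held 2 SMAD boxes and 1 C/EBP-ATF element, and the Inhbc window held 2 SMAD boxes and no match to the element. Of all 32851 RefSeq promoter windows of this length, 42.2% held a SMAD box and 0.791% held the C/EBP-ATF element. Of the 8 members searched, 5 had a SMAD box in any of their windows (Inhbe, Tgfb2, Tgfbi, Tgfbr1 and Tgfbr2) and 1, Inhbe, had the element. For Tgfbr1 the window before the GENCODE start held no box, and only that of an internal start held 1. The background counts windows rather than genes. Tgfb3 and Smad7 were not searched. Both Inhbe and Inhbc overlap the antisense gene Gm47200, which had 5 UMIs in all sections together.

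Tgfbr2, the type II receptor that binds TGF-beta, fell and then rose. Its level was 25.03, 26.6 and 26.04 CPM at 0 h, 18.6 and 15.95 at 24 h, 23.4 and 24.9 at 36 h, then 34.3, 35.9, 39.6 and 31.2 at 48 h. The 24 h sections lay below every other section, the 36 h sections were just below the uninjured ones, and the 48 h sections lay above all others. Both the lower level at 24 h (log2 fold change = -0.58 ± 0.12 (SE), adjusted p = 0.00311) and the higher level at 48 h (log2 fold change = 0.44 ± 0.10 (SE), adjusted p = 0.00424) were called, with no call at 36 h (adjusted p = 0.547). Total-count scaling took away the call at 24 h (-0.25, adjusted p = 0.119). Between 24 h and 48 h Tgfbr2 rose by 2.04-fold (log2 fold change = 1.03 ± 0.12 (SE), adjusted p = 0.000371).

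Tgfbr1, the type I receptor that signals with it, was at 12.9, 17.5 and 15.7 CPM at 0 h, 17.8 and 28.01 at 24 h, 16.6 and 24.6 at 36 h, then 23.7, 21.1, 23.96 and 18.9 at 48 h. The lower section at 24 h and at 36 h lay near or within the uninjured range, and the 4 at 48 h lay above it. The rise at 48 h was called (log2 fold change = 0.51 ± 0.19 (SE), adjusted p = 0.0446), whereas the earlier times missed the threshold (adjusted p = 0.0571 for 24 h and 0.170 for 36 h). This call was marginal: any 1 of the 3 uninjured sections (0 h 2 gave 0.40, adjusted p = 0.168), or of the sections A, B and C of that time, removed it when left out, with adjusted p of 0.0535 to 0.168. Without 24 h A the gene was called at 24 h, with a log2 fold change of 0.87 and an adjusted p of 0.0190, and it was also called there by DESeq2 (0.56, adjusted p = 0.0480), with total-count scaling (0.89, adjusted p = 0.00499) and without either 36 h section (0.57, adjusted p = 0.0353 and 0.53, adjusted p = 0.0483).

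Smad7, the inhibitory SMAD that is induced by TGF-beta and blocks its receptor, was at 11.1, 8.23 and 5.87 CPM at 0 h, 6.88 and 10.5 at 24 h, 10.2 and 11.8 at 36 h, then 9.44, 8.76, 9.58 and 10.9 at 48 h. The groups overlapped, the uninjured sections spanning nearly the whole range. Tgfbi, a secreted matrix protein named for its induction by TGF-beta, was at 48.6, 53.2 and 67.6 CPM at 0 h, 60.1 and 54.9 at 24 h, 53.3 and 65.1 at 36 h, then 45.6, 56.5, 66.2 and 58.4 at 48 h, again with overlapping groups. Neither gene passed the test in any comparison of 2 times, with adjusted p of at least 0.245 for Smad7 and 0.797 for Tgfbi against 0 h. With total-count scaling both were called higher than at 0 h at 36 h and 48 h, with log2 fold changes of 0.82 and 0.73 for Smad7 and 0.50 and 0.54 for Tgfbi, on a scale where the median of all genes stood at 0.49 and 0.54.

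**Figure D1:**
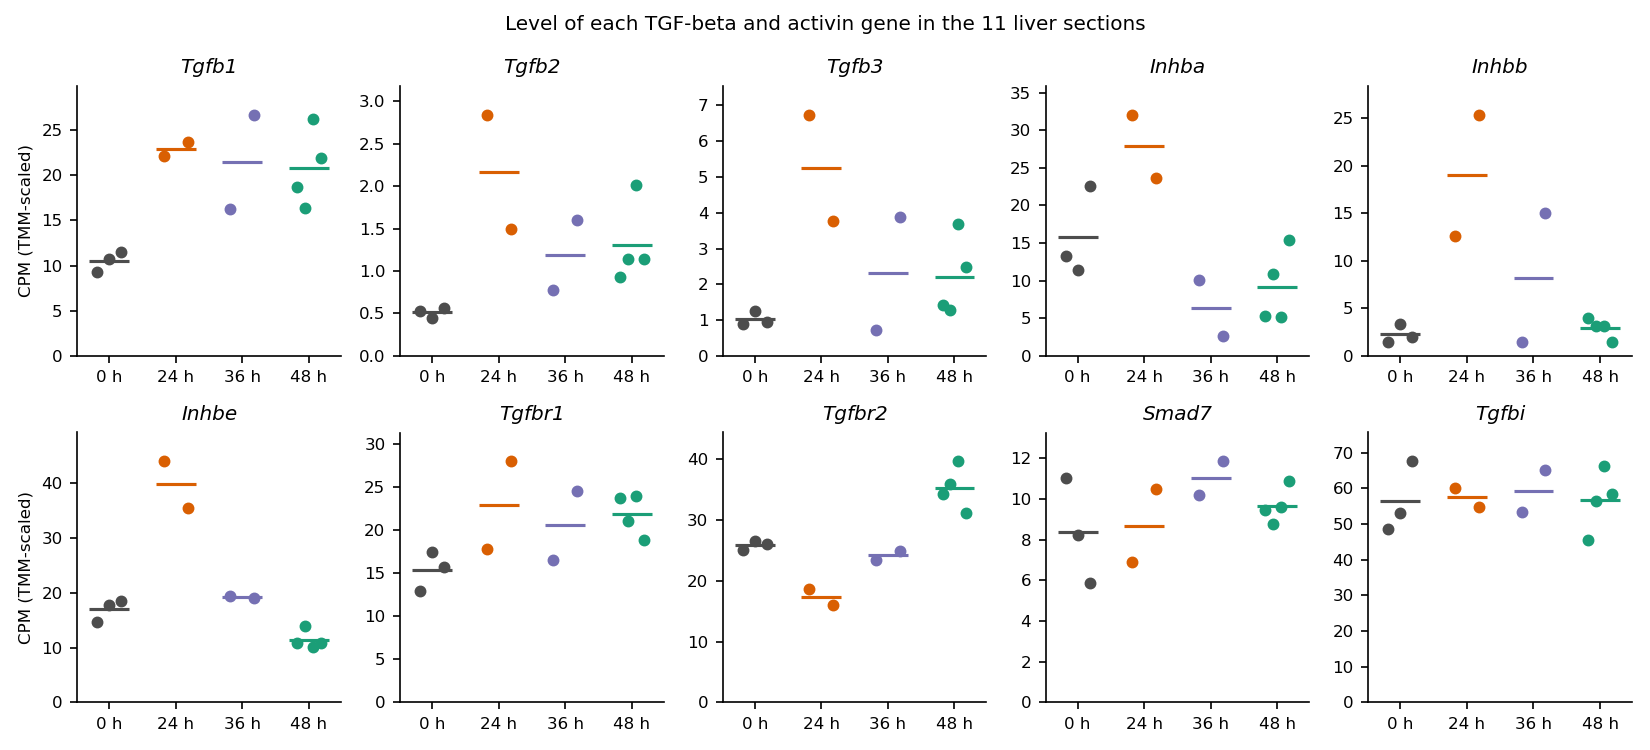
Level of each gene (y axis, TMM-scaled CPM, from 0) at each time (x axis). Points are sections and bars their mean. Tgfb1 in the 3 uninjured sections sits at 9.31 to 11.5 CPM, below all 8 injured sections, and Inhbe peaks at 24 h (43.96 and 35.5 CPM).

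Of the 10 genes, all of which passed the low-count filter, 6 were called at 24 h against 0 h, where 41.7% of the 14821 genes tested were called. Of these, Tgfb1, Tgfb2, Tgfb3, Inhbb and Inhbe were higher and Tgfbr2 was lower. At 36 h 1 was called, Tgfb1, against a background of 29.2%, and at 48 h 5 were called against 44.2%, with Tgfb1, Tgfb2, Tgfbr1 and Tgfbr2 higher and Inhbe lower. The 3 comparisons share the uninjured sections. The median log2 fold change of the 10 genes was 0.97 at 24 h, 0.41 at 36 h and 0.40 at 48 h; by comparison, the median over all genes tested was 0.05, 0.05 and 0.01. In such section totals a change in the number of cells of a type and a change in RNA per cell cannot be told apart. The phagocyte and myofibroblast lists given above moved with time as well. The endothelial list summed to 272 to 304 CPM at 0 h and 184 to 186 at 24 h. It summed to 184 to 255 CPM at 36 h and 192 to 228 at 48 h. The stellate cell list summed to 108 to 127 CPM at 0 h and 78.4 to 81.3 at 24 h. It summed to 74.1 to 108 CPM at 36 h and 114 to 159 at 48 h. The endothelial and stellate cell lists were thus lower at 24 h than at 0 h, as Tgfbr2 was. The part of these marker lists in the changes was not tested.

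Among injured times, 4 of the 10 genes were called between 24 h and 48 h, against 34.1% of all genes: Inhba, Inhbb and Inhbe were lower at 48 h and Tgfbr2 was higher. From 24 h to 36 h 2 were called (background 15.6%), Inhbe lower and Tgfbr2 higher (log2 fold change = 0.48 ± 0.13 (SE), adjusted p = 0.0326). From 36 h to 48 h the same 2 genes were called (background 3.05%), Inhbe falling further (log2 fold change = -0.75 ± 0.15 (SE), adjusted p = 0.0267) and Tgfbr2 rising further (log2 fold change = 0.54 ± 0.11 (SE), adjusted p = 0.0321). The calls that involve 36 h were fragile. Tgfbr2 from 24 h to 36 h was lost without 24 h A (0.59, adjusted p = 0.0704), 24 h B or 36 h B, Tgfbr2 from 36 h to 48 h without any 1 of the 3 uninjured sections, 36 h A, 48 h B or 48 h C (adjusted p of 0.0547 to 0.0965), and Inhbe from 36 h to 48 h without 36 h A (-0.73, adjusted p = 0.0749), 48 h C or 48 h D.

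**Figure D2:**
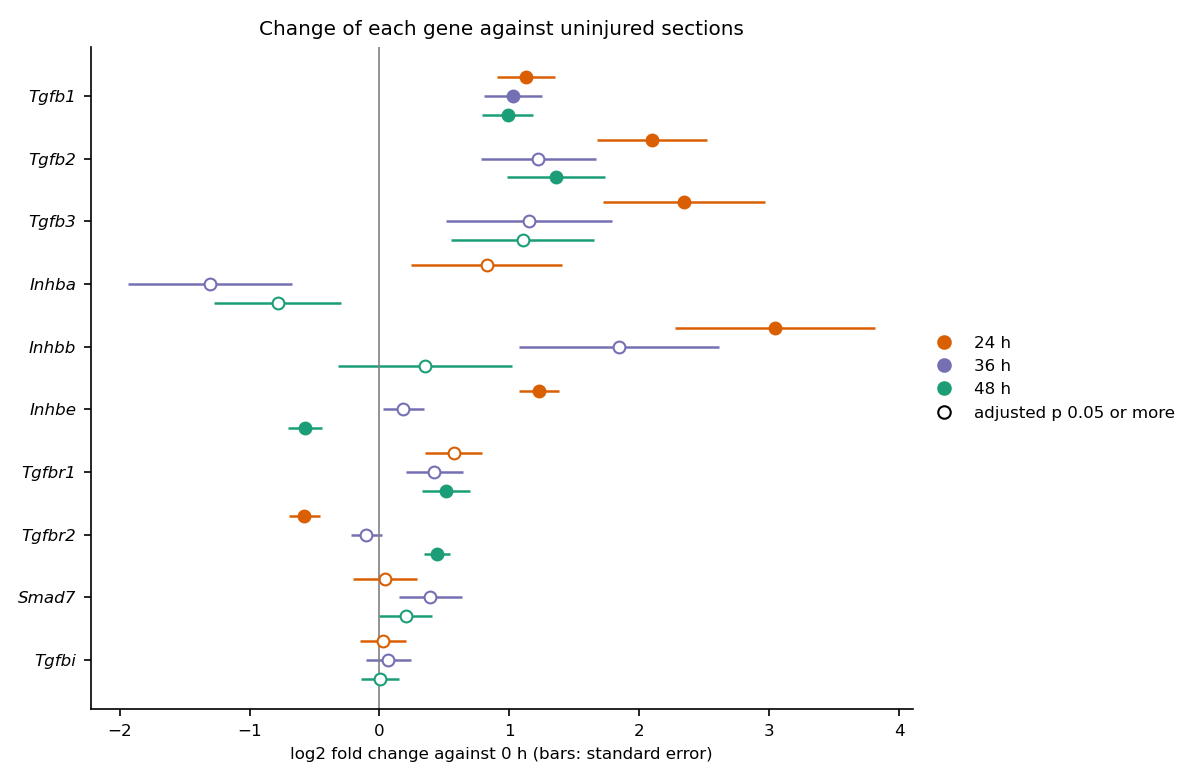
Log2 fold change against 0 h (x axis) for each gene (y axis) at 24 h, 36 h and 48 h. Bars are standard errors of the fit to all 11 sections and open points had an adjusted p of 0.05 or more. Inhbb at 24 h lies farthest from 0, at 3.05, and Inhbe crosses from 1.23 at 24 h to -0.57 at 48 h.

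To ask where in the tissue these genes were transcribed, the 10% of spots of each section with the lowest score for the 6 hepatocyte markers (hepatocyte-poor, 149 to 347 spots) were compared with the 50% with the highest score (hepatocyte-rich, 745 to 1730 spots) within the same section. The classes are set within a section, so uninjured sections hold both as well. At 0 h the summed hepatocyte markers of hepatocyte-poor spots were 0.651 to 0.732 times those of hepatocyte-rich spots. This ratio was 0.453 to 0.466 at 24 h, 0.5004 to 0.514 at 36 h and 0.289 to 0.430 at 48 h. Hepatocyte-poor spots thus still held these markers, and the classes differed least in them at 0 h. In injured sections the phagocyte list was 1.704 to 2.46 times as high in hepatocyte-poor as in hepatocyte-rich spots at 24 h, 2.38 to 2.83 times at 36 h and 3.81 to 4.402 times at 48 h, and the myofibroblast list 1.95 to 3.22, 2.95 to 3.196 and 3.94 to 4.68 times. The platelet list (Pf4, Ppbp and Itga2b) was 2.165 to 3.77, 3.15 to 3.23 and 4.69 to 5.49 times as high at these times. The neutrophil list (S100a8, S100a9, Cxcr2, Ly6g and Retnlg) was 2.25 to 3.63, 3.13 to 3.71 and 3.15 to 3.96 times as high. Over the injured sections the endothelial list was 0.945 to 1.24 times as high. At 0 h the platelet ratio was 0.663 to 1.25 and the neutrophil ratio 0.409 to 0.901. In uninjured sections the phagocyte ratio was 0.754 to 0.801 and the myofibroblast ratio 1.09 to 1.14, and the hepatocyte-poor spots there were higher for the pericentral list (1.91 to 2.37 times). The part of these cell types in the differences below was not tested. Levels in this comparison are CPM on the TMM scale of the class sums, and the values given after them are log2 differences ± SE with their adjusted p by edgeR.

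At 0 h none of the 10 genes was called between the classes, where 3.72% of the 13870 genes tested were. By edgeR 4 of the 10 genes had an unadjusted p under 0.05 there, and DESeq2 was not run on this comparison. Inhba was called there when 24 h A or 24 h B was left out (log2 difference = -0.68, adjusted p = 0.0155 and -0.68, adjusted p = 0.0147), lower in hepatocyte-poor spots. With scores on all UMIs Tgfb1 (-0.57, adjusted p = 0.0274) and Inhbe (0.57, adjusted p = 0.00198) were called at 0 h, Inhbe also with total-count scaling, and Inhba with no low-count filter (-0.71, adjusted p = 5.56e-05). At 24 h 3 were called (background 33.0%), at 36 h 5 (background 33.1%) and at 48 h all 10 (background 66.2%).

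Tgfb1 was higher in hepatocyte-poor spots at each injured time. At 0 h its level in hepatocyte-poor against hepatocyte-rich spots was 9.48 against 11.97, 13.6 against 13.2 and 11.1 against 13.95 CPM in the 3 sections. It was 44.7 against 20.3 and 44.5 against 19.1 CPM at 24 h, 35.1 against 16.5 and 52.1 against 24.7 at 36 h and 46.4 against 14.6, 42.1 against 15.2, 67.5 against 21.8 and 61.7 against 19.1 at 48 h. The hepatocyte-poor spots held more than 2 times as much in every injured section, and 0.792 to 1.02 times as much in the uninjured ones. The log2 difference was 1.17 ± 0.11, adjusted p = 2.28e-09 at 24 h, 1.08 ± 0.12, adjusted p = 1.64e-08 at 36 h and 1.62 ± 0.07, adjusted p = 2.34e-18 at 48 h. Each exceeded that at 0 h in a test of the difference itself, by 1.35, 1.26 and 1.80 on the log2 scale.

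Inhbe went the other way. Its level in hepatocyte-poor against hepatocyte-rich spots was 19.8 against 16.3, 23.96 against 18.9 and 26.1 against 19.2 CPM at 0 h, 22.9 against 60.95 and 15.3 against 51.3 at 24 h, 12.6 against 25.4 and 10.8 against 28.4 at 36 h and 3.36 against 15.6, 6.202 against 18.8, 3.17 against 16.1 and 5.36 against 13.8 at 48 h. All 3 uninjured sections were slightly higher in hepatocyte-poor spots and all 8 injured sections were lower there. The log2 difference was -1.54 ± 0.14, adjusted p = 1.19e-09 at 24 h, -1.20 ± 0.18, adjusted p = 2.74e-06 at 36 h and -1.86 ± 0.13, adjusted p = 2.37e-13 at 48 h, against 0.35 ± 0.13, adjusted p = 0.163 at 0 h. Inhbc, which like Inhbe is a hepatocyte gene, had log2 differences of 0.20, -1.39, -1.13 and -1.83 at the 4 times, and passed the test at the 3 injured ones.

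Inhbb was higher in hepatocyte-poor spots at 24 h (24.3 and 11.98 CPM in the hepatocyte-poor and hepatocyte-rich spots of A, 44.2 and 22.1 in B; 1.01 ± 0.13, adjusted p = 6.56e-07) and at 48 h (7.06 against 4.24, 6.39 against 3.495, 6.07 against 3.19 and 3.57 against 1.54 CPM; 0.89 ± 0.14, adjusted p = 3.44e-06), when its section levels overlapped the uninjured range. At 36 h the values were 1.34 against 1.65 and 23.3 against 16.5 CPM, and the difference was not called (adjusted p = 0.108). It passed there with total-count scaling (0.76, adjusted p = 0.00296). Inhba showed no such enrichment at 48 h: its levels were 4.82 against 6.77, 6.58 against 13.9, 2.77 against 8.02 and 9.21 against 20.05 CPM, lower in hepatocyte-poor spots in all 4 sections (-1.04 ± 0.25, adjusted p = 0.00304). At 0 h its difference was -0.68 ± 0.28 (adjusted p = 0.329). The difference at 48 h minus that at 0 h was not called (-0.36 ± 0.39, adjusted p = 0.510). At 24 h the levels of Inhba were 41.5 against 37.5 and 51.4 against 20.2 CPM, with no call (0.67 ± 0.24, adjusted p = 0.0554), but it passed under 8 alternatives. These were the lowest 5% (0.82, adjusted p = 0.00850) or 20% of spots (0.58, adjusted p = 0.0219), scores on all UMIs (0.74, adjusted p = 0.0398), total-count scaling (1.02, adjusted p = 0.00658), no low-count filter (0.65, adjusted p = 1.93e-06), and leaving out 24 h A (1.34, adjusted p = 4.75e-05), 0 h 4 (0.68, adjusted p = 0.0469) or 48 h A (0.68, adjusted p = 0.0402). Without 24 h B the difference was 0.14 (adjusted p = 0.684).

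For Tgfb2 and Tgfb3 the difference was called at 48 h, where hepatocyte-poor against hepatocyte-rich spots held 2.58 against 0.700, 2.82 against 1.35, 4.36 against 1.81 and 3.57 against 0.790 CPM of Tgfb2 (1.56 ± 0.26, adjusted p = 5.31e-06) and 5.601 against 0.934, 2.63 against 1.398, 8.45 against 3.84 and 4.398 against 2.62 CPM of Tgfb3 (1.31 ± 0.22, adjusted p = 1.14e-05). Both genes were higher in the hepatocyte-poor spots of all 4 sections. At 24 h and 36 h they did not pass the test (adjusted p = 0.261 and 0.0916 for Tgfb2, 0.266 and 0.0541 for Tgfb3). Both passed at 36 h with total-count scaling and with scores on all UMIs (1.52, adjusted p = 0.0177 for Tgfb2 and 1.61, adjusted p = 0.00659 for Tgfb3). Tgfb2 also passed at 36 h without 36 h A, and at 24 h with scores on all UMIs. Tgfb3 also passed at 36 h with the lowest 20% of spots, with no low-count filter and when section 2 or 3 of 0 h, or section A or D of 48 h, was left out. At 24 h it passed with total-count scaling.

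Neither receptor was called between the classes at 0 h or 24 h in the main fit. With total-count scaling both were called at 24 h (0.54, adjusted p = 0.00191 for Tgfbr1 and 0.44, adjusted p = 0.0166 for Tgfbr2). Both receptors were higher in hepatocyte-poor spots later. Tgfbr1 was at 40.4 against 23.97, 37.4 against 21.5, 46.2 against 23.4 and 31.2 against 19.1 CPM in the classes at 48 h (0.81 ± 0.08, adjusted p = 1.84e-10) and was called at 36 h as well (0.55 ± 0.14, adjusted p = 0.00231), a call lost without 36 h A (0.39, adjusted p = 0.126). Tgfbr2 was at 64.3 against 33.7, 58.4 against 38.9, 67.5 against 40.4 and 54.3 against 33.9 CPM at 48 h (0.74 ± 0.07, adjusted p = 1.3e-10). At 36 h its difference was 0.35 ± 0.13, adjusted p = 0.0338, lost without either 36 h section (0.39, adjusted p = 0.131 without A and 0.30, adjusted p = 0.278 without B), with the lowest 20% of spots (0.24, adjusted p = 0.149) and with no low-count filter (0.32, adjusted p = 0.0592).

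Tgfbi and Smad7, which did not change over time in the section totals past the threshold, did differ between the classes. Tgfbi was at 79.6 against 46.4, 94.2 against 59.4, 109 against 73.5 and 97.6 against 63.8 CPM at 48 h (0.66 ± 0.07, adjusted p = 5.46e-10), higher in hepatocyte-poor spots in all 4 sections. It was called at 36 h too (0.53 ± 0.10, adjusted p = 0.000157), though not without 36 h B (0.35, adjusted p = 0.0873). At 24 h Tgfbi passed with total-count scaling (0.43, adjusted p = 0.00155). Smad7 was called at 48 h only, at 13.1 against 9.73, 12.97 against 9.39, 13.6 against 10.7 and 13.5 against 11.9 CPM (0.35 ± 0.09, adjusted p = 0.00202). Its difference at 48 h minus that at 0 h was not called (0.24 ± 0.17, adjusted p = 0.288). That passed with the lowest 20% of spots (0.41, adjusted p = 0.0191) and with total-count scaling (0.59, adjusted p = 0.00584).

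**Figure D3:**
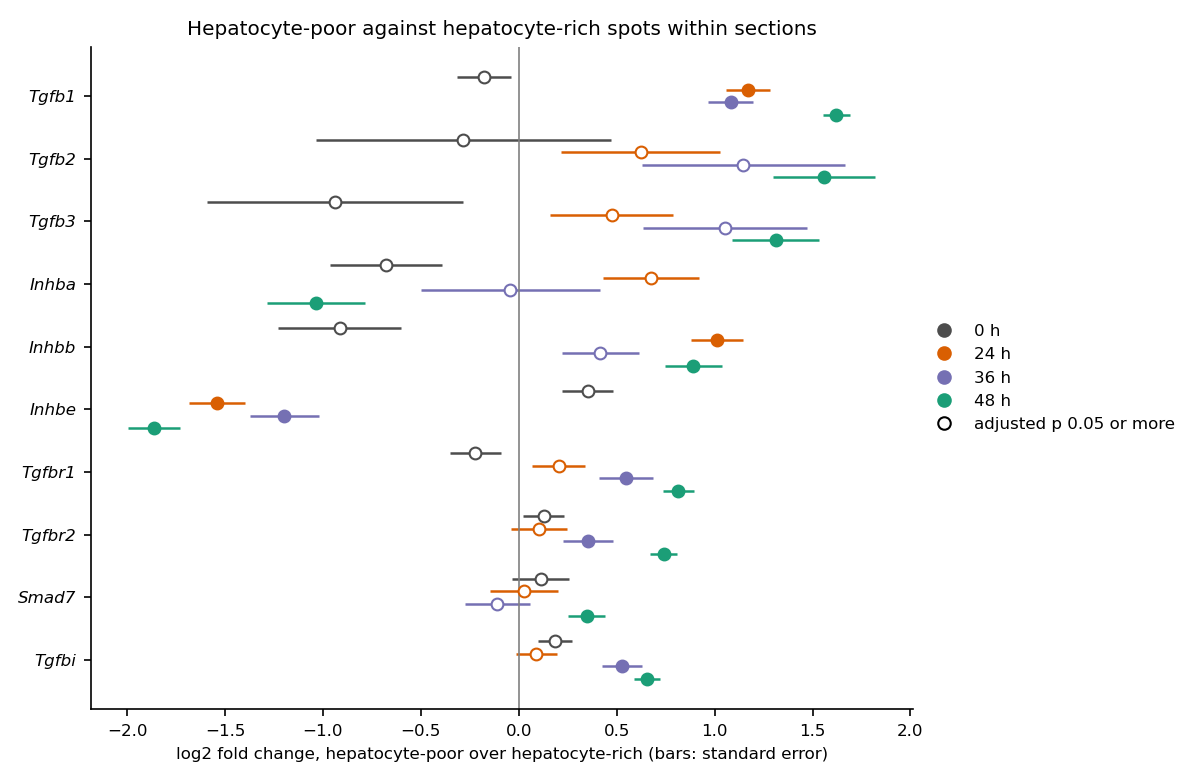
Log2 difference between hepatocyte-poor and hepatocyte-rich spots of the same section (x axis) for each gene (y axis) at the 4 times. Bars are standard errors and open points had an adjusted p of 0.05 or more. At 48 h Tgfb1 lies at 1.62 and Inhbe at -1.86.

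Whether the class difference itself changed after injury was tested against that at 0 h. At 24 h 4 of the 10 genes passed (background 20.1%), at 36 h 4 (background 21.0%) and at 48 h 8 (background 41.8%). Besides Tgfb1 and Inhbe, Inhbb passed at all 3 times, Inhba at 24 h, Tgfbr1 at 36 h and 48 h, and Tgfb2, Tgfb3, Tgfbr2 and Tgfbi at 48 h. Inhba at 24 h was lost without 0 h 2 (1.41, adjusted p = 0.0620), 0 h 4 (1.16, adjusted p = 0.0761) or 48 h C (1.36, adjusted p = 0.0567). Inhbb at 36 h was lost without 0 h 3 (1.03, adjusted p = 0.157) or 36 h B (0.62, adjusted p = 0.699), and when spots were scored on all their UMIs without thinning (0.52, adjusted p = 0.426). Tgfbr1 at 36 h was lost without 36 h A (0.61, adjusted p = 0.0599). Tgfb2 at 48 h was lost without 0 h 3 (1.85, adjusted p = 0.132), 0 h 4 (1.32, adjusted p = 0.189), 48 h A (1.75, adjusted p = 0.0675) or 48 h D (1.65, adjusted p = 0.0765). It was also lost with the lowest 5% (1.32, adjusted p = 0.233) or 20% of spots (1.03, adjusted p = 0.152) as the hepatocyte-poor class. Tgfb3 at 36 h missed the threshold (1.99 ± 0.75, adjusted p = 0.0612), which it passed with the lowest 20% of spots (1.46, adjusted p = 0.0498) with scores on all UMIs (2.56, adjusted p = 0.0190), with total-count scaling, with no low-count filter, and without 0 h 3, 48 h A or 48 h D. Tgfbi at 36 h missed the threshold too (0.34 ± 0.13, adjusted p = 0.0690). It passed with the lowest 5% of spots (0.56, adjusted p = 0.00952) and with total-count scaling (0.59, adjusted p = 0.00129). It also passed without 0 h 4 (0.46, adjusted p = 0.0292). Tgfbr1 at 24 h was not called (0.43 ± 0.19, adjusted p = 0.116). It passed without 0 h 3 (0.64, adjusted p = 0.0473) and with total-count scaling (0.68, adjusted p = 0.00896). With that scaling Tgfbr2 passed at 36 h (0.48). The comparison is with uninjured spots that were low in hepatocyte markers and high in pericentral ones. Their hepatocyte markers were less reduced, relative to hepatocyte-rich spots, than in injured sections.

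Divided into 10 equal groups by hepatocyte score, with CPM here taken without TMM scaling, the spots showed how far each pattern reached. Tgfb1 averaged 69.1 CPM in the lowest group and 13.9 in the highest at 48 h, 47.5 and 14.6 at 24 h, and 8.23 and 8.91 at 0 h. Levels on this scale are best read within a time, since without TMM scaling the median of all genes was itself 0.37, 0.49 and 0.54 higher (log2) at 24 h, 36 h and 48 h than at 0 h. Inhbe averaged 20.3 CPM in the lowest and 44.1 in the highest group at 24 h, 5.73 and 14.5 at 48 h, and 16.8 and 11.97 at 0 h. After injury its profile ran opposite to that of Tgfb1. Inhba at 24 h averaged 49.4 CPM in the lowest group, 38.7 in the next and 24.2 in the highest, and Inhbb 36.3, 28.4 and 9.97. Tgfbr2 at 48 h averaged 77.6 and 28.2 CPM in the lowest and highest group.

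**Figure D4:**
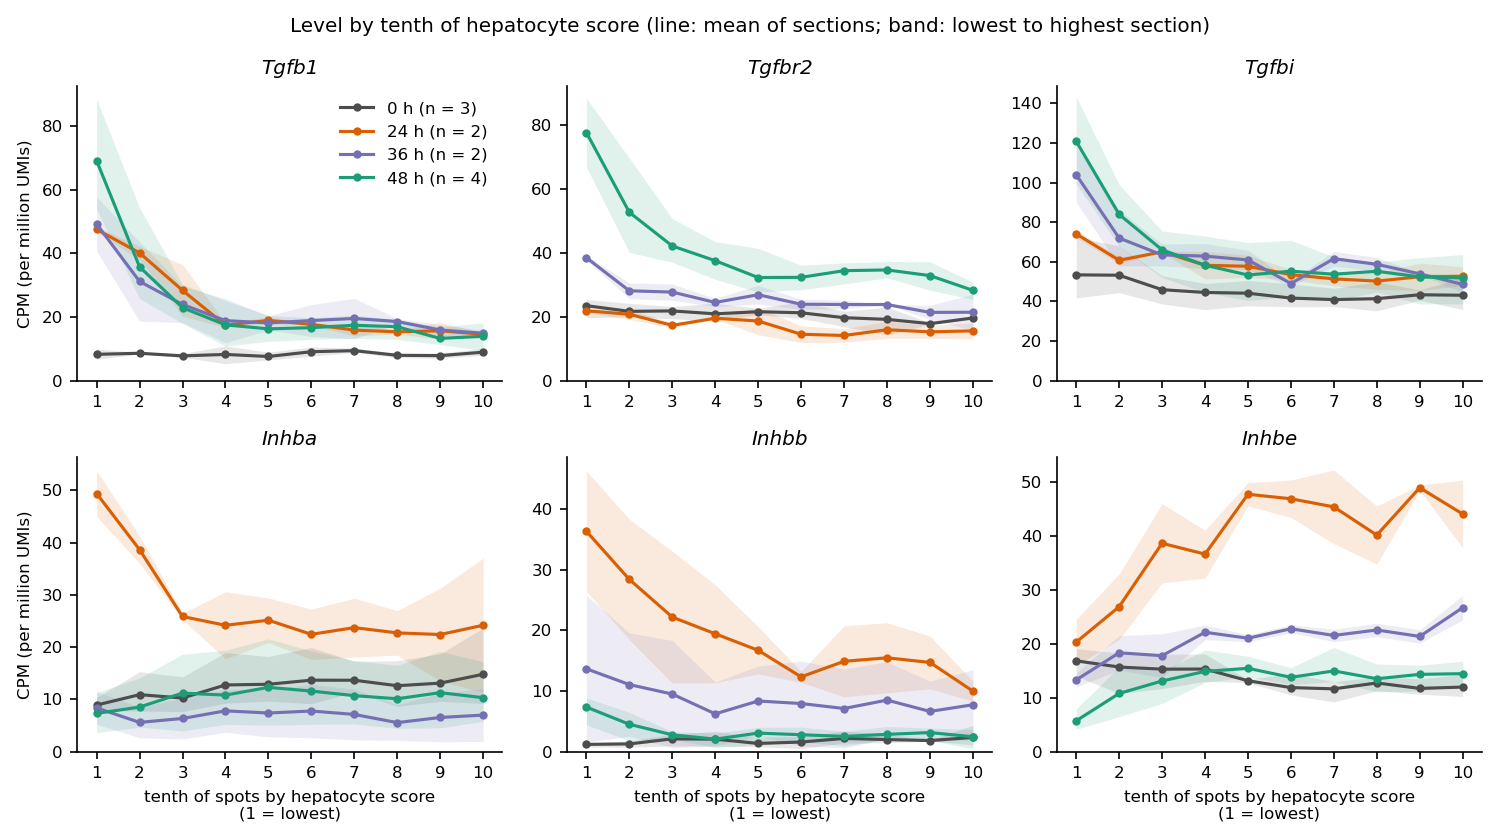
Mean CPM without TMM scaling (y axis, from 0) in each of 10 equal groups of spots by hepatocyte score (x axis, 1 lowest) for 6 genes. Lines are means over the sections of a time and bands run from the lowest to the highest section. Tgfb1 falls from 69.1 to 13.9 CPM across the groups at 48 h, while Inhbe climbs from 20.3 to 44.1 at 24 h.

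Spots rich in markers of single cell types were described next, as the level in the 10% of spots highest for a list over the level in the remaining spots of the section. Lists were scored separately, so 1 spot can be rich in several, and a spot can hold several cell types. Over the 8 injured sections, Tgfb1 had a median ratio of 2.95 (8 of 8 sections higher) in phagocyte-rich spots, 2.505 (8 of 8 sections higher) in myofibroblast-rich spots and 0.501 (0 of 8 sections higher) in spots rich in periportal hepatocyte markers. Tgfb3 was higher in myofibroblast-rich spots, at 2.68 (8 of 8 sections higher), and stood at 2.13 (8 of 8 sections higher) in phagocyte-rich ones. In uninjured sections the myofibroblast-rich spots already held more Tgfb3, at 2.16 (3 of 3 sections higher), from 26 UMIs. Inhbe was low in phagocyte-rich spots, at 0.517 (0 of 8 sections higher), and in myofibroblast-rich ones, at 0.574 (0 of 8 sections higher), and high in periportal-rich spots, at 1.41 (8 of 8 sections higher). Inhba varied between sections, with 1.07 (4 of 8 sections higher) and a range of 0.572 to 3.61 for phagocytes, and 1.19 (5 of 8 sections higher) and a range of 0.609 to 1.81 for myofibroblasts. Inhbb had 1.86 (7 of 8 sections higher) for phagocytes and 1.73 (8 of 8 sections higher) for neutrophils (S100a8, S100a9, Cxcr2, Ly6g and Retnlg). Tgfbr1, Tgfbr2, Tgfbi and Smad7 were each higher in phagocyte-rich spots of all 8 sections, with median ratios of 1.901, 1.72, 1.77 and 1.46.

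**Figure D5:**
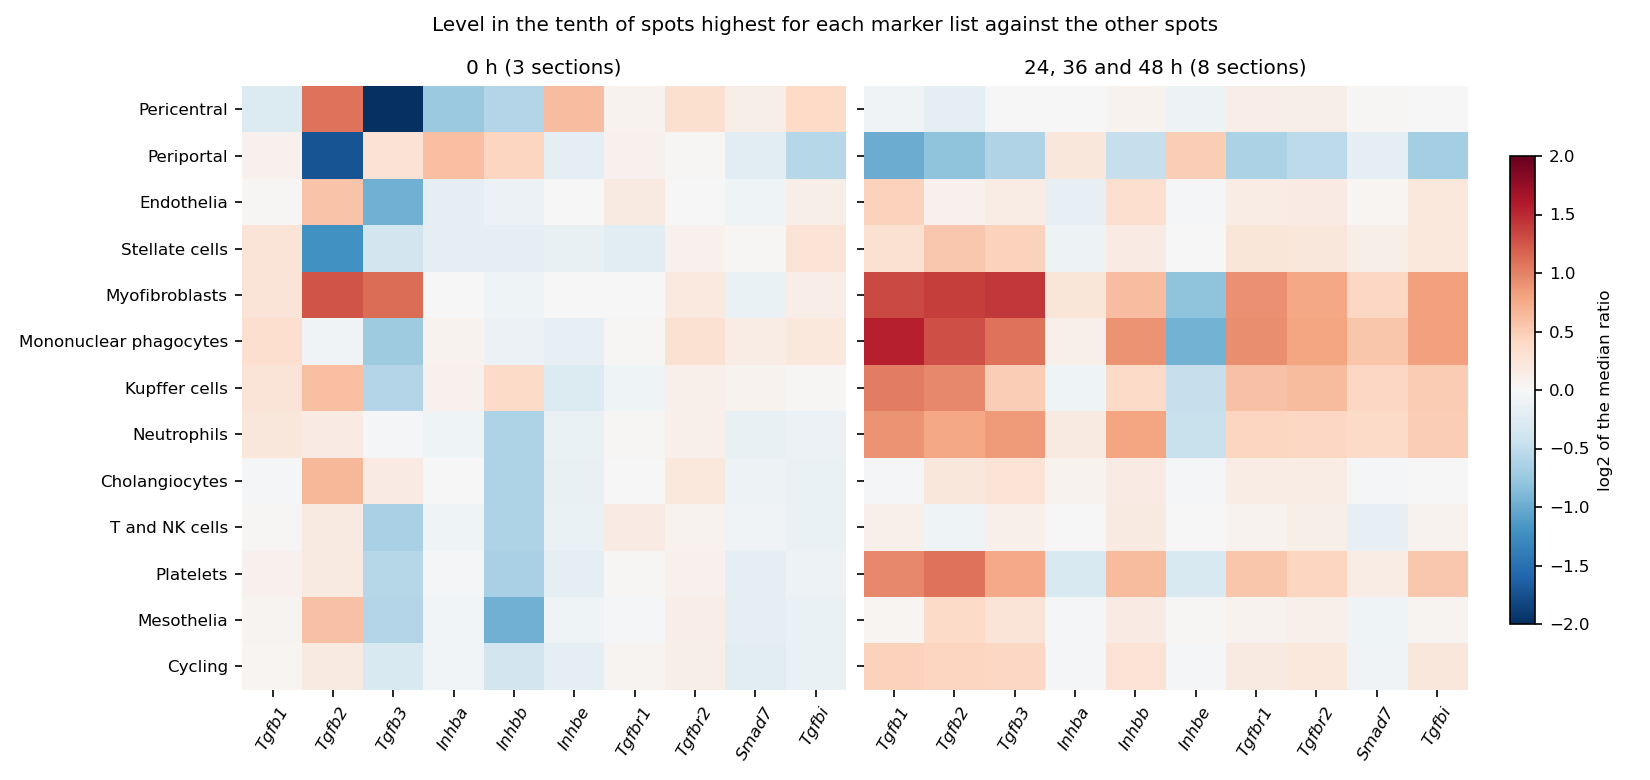
Log2 of the median ratio between the 10% of spots highest for a marker list (rows) and the other spots of the section, for each gene (columns), in uninjured and injured sections. Red is higher and blue lower in marker-rich spots. In injured sections the phagocyte and myofibroblast rows are red for Tgfb1 (median ratios 2.95 and 2.505) and blue for Inhbe (0.517 and 0.574).

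In the uninjured lobule several of these genes were zonated. The third of spots with the highest pericentral over periportal score was compared with the third with the lowest, within the 3 sections at 0 h, and 5 of the 9 genes that passed the low-count filter were called, against 22.6% of the 12274 genes tested. Tgfb2 did not pass the filter. Tgfb3 was lower in pericentral than in periportal spots (0.165 against 1.003, 0.407 against 1.89 and 0.283 against 0.830 CPM in the 3 sections; -2.14 ± 0.34, adjusted p = 6.04e-06), as were Inhba (8.098 against 14.1, 6.41 against 12.6 and 11.4 against 23.9 CPM; -0.95 ± 0.08, adjusted p = 2.08e-11) and Inhbb (0.661 against 1.48, 2.03 against 3.09 and 1.34 against 1.96 CPM; -0.70 ± 0.21, adjusted p = 0.0125). The whole 0 h sections held only 40, 68 and 34 UMIs of Tgfb3, so its levels in these classes rest on few UMIs. The call for Inhbb was lost without 0 h 2 (-0.58, adjusted p = 0.0865) or 0 h 3 (-0.81, adjusted p = 0.0721). Inhbe (14.3 against 10.7, 19.6 against 10.9 and 16.5 against 14.2 CPM; 0.53 ± 0.09, adjusted p = 0.000179) and Tgfbi (46.3 against 34.9, 49.1 against 36.1 and 67.9 against 41.7 CPM; 0.52 ± 0.05, adjusted p = 5.14e-10) were higher in pericentral spots, in all 3 sections. Inhba and Inhbe, subunits of related ligands, were thus higher at opposite ends of the lobule. Tgfb1, Tgfbr1, Tgfbr2 and Smad7 did not pass the test (adjusted p = 0.409, 0.126, 0.471 and 0.396). Tgfb1 passed with the upper and lower 10% of spots (-0.44, adjusted p = 0.0497) and Tgfbr1 without 0 h 4 (-0.25, adjusted p = 0.0417).

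Per spot these transcripts were sparse. With each spot thinned to 5000 UMIs, Tgfb1 was seen in 3.11 to 4.54% of spots at 0 h and 10.8 to 11.5% at 24 h, Inhbe in 5.23 to 6.67% and 14.2 to 21.1%, and Tgfb2 in 0.339 to 0.532% and 0.743 to 1.55%. Unthinned, Tgfb1 was seen in 15.8 to 19.2% of spots at 0 h and 30.3 to 31.9% at 24 h. Barcodes outside the tissue, which hold RNA that has spread over the array, showed Tgfb1 in 1.18 to 3.98% at 0 h and 2.47 to 2.93% at 24 h, at a median of 952 to 10293 UMIs a barcode over all sections against 15168 to 29950 in passing spots. At 48 h these barcodes showed Tgfb1 in 4.97 to 12.0%, against 26.5 to 42.8% of passing spots. Tgfbr2 was seen in 10.9 to 29.9% of them against 43.7 to 65.7%, and Tgfbi in 13.5 to 31.6% against 51.9 to 76.4%. Section 48 h A had the highest of these off-tissue shares. The spread of RNA between neighbouring spots was not measured.

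The genes whose levels followed each member most closely over the 11 sections were ranked by Pearson's r of log2(CPM + 0.5). All points share the grouping into 4 times, so these values are descriptions. For Tgfb1 they were Rab11fip5 (r = 0.99), Col4a2 (r = 0.98), Plekhg2 (r = 0.98), for Tgfb2 Foxs1 (r = 0.94), Reep5 (r = 0.93), Sccpdh (r = 0.93) and for Tgfb3 Sfn (r = 0.92), Nacc1 (r = 0.91), Tgfb2 (r = 0.91). For Tgfbr1 they were Kif2a (r = 0.96), Retnlg (r = 0.95), Cd101 (r = 0.95) and for Tgfbr2 F2r (r = 0.97), Fam92a (r = 0.95), Lum (r = 0.95). For Inhba they were Hspe1 (r = 0.96), Gbf1 (r = 0.96), Saraf (r = 0.96), for Inhbb Eif2b2 (r = 0.96), Adamts1 (r = 0.96), Slc39a14 (r = 0.95) and for Inhbe Gm11707 (r = 0.97), Pdf (r = 0.96), Timm10 (r = 0.96). Tgfb2 stood among the 3 genes nearest to Tgfb3, Col4a2 (a basement membrane collagen) near Tgfb1, and Lum (the matrix proteoglycan lumican) near Tgfbr2.

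The rest of the pathway was read from a list of 65 further genes, of which 64 were tested (Ltbp2 stands in 2 of its groups). Acvr1c did not pass the low-count filter. At 24 h 21 were higher than at 0 h (background 23.1%) and 11 lower (background 18.6%). The 36 h sections had 20 that rose (16.8% of all genes) and 6 that fell (12.4%). In those of 48 h 30 rose (23.3%) and 7 fell (20.9%).

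Of 8 further ligands and prodomain genes, 2 rose and 3 fell at 24 h, 1 rose and 1 fell at 36 h and 1 rose and 2 fell at 48 h. Gdf15, a stress-induced ligand, rose at all 3 times (log2 fold changes of 2.15, 0.89 and 1.86, in order of time here and below), and Bmp2, an endothelial BMP ligand, fell at all 3 (-1.87, -0.93 and -0.94). Bmp6, which drives hepcidin, had -1.27, -0.13 and -0.69 and was called at 24 h and 48 h. Nodal, a ligand of early embryos, was called higher at 24 h alone (1.41, 0.89 and 0.71), and Inhbc at none. Mean levels of Nodal were low, at 0.477 to 1.29 CPM. Of 9 further receptors and co-receptors tested, 3 fell at 24 h, 2 at 36 h and 2 at 48 h. The activin receptors Acvr2a (-0.32, -0.45 and -0.53) and Acvr2b (-1.09, -0.43 and -0.90) were lower at 2 times each, Acvr2a at 36 h and 48 h and Acvr2b at 24 h and 48 h. Bmpr1a, a type I BMP receptor, was lower at 24 h and 36 h (-0.37, -0.36 and -0.17), and Eng, the endothelial co-receptor endoglin, was called at no time (-0.30, -0.02 and -0.02). Tgfbr3, the co-receptor betaglycan, was lower at 24 h (log2 fold change = -1.13 ± 0.27, adjusted p = 0.00720), as Tgfbr2 was. Of 6 SMADs, 2 fell at 24 h, Smad1 and Smad6 of the BMP branch (-0.54 and -0.72). Smad5 was called at no time (0.12, -0.12 and 0.03).

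For the next 3 groups the shares of all genes that rose were again 23.1%, 16.8% and 23.3%, and those that fell 18.6%, 12.4% and 20.9%. Of 11 genes that hold TGF-beta latent or release it, 5 rose and 1 fell at 24 h, 5 rose and 1 fell at 36 h and 8 rose and 1 fell at 48 h. Thbs1 (thrombospondin 1, an activator of latent TGF-beta) had log2 fold changes of 5.70, 2.66 and 3.03, Fbn1 (fibrillin 1, which anchors latent complexes) 1.49, 2.19 and 2.92, Nrros (which holds latent TGF-beta on myeloid cells) 0.87, 0.90 and 1.50 and Itgav (the integrin alpha V chain, which pulls TGF-beta free) 0.64, 0.58 and 1.22, all called at all 3 times. Itgb8, an integrin partner of Itgav, was called at none (-1.23, -0.52 and 0.07). Its mean levels were only 0.107 to 0.284 CPM, so the lack of a call says little. Of 13 inhibitors, 3 rose and 2 fell at 24 h, 3 rose and 2 fell at 36 h and 8 rose and 2 fell at 48 h. Fstl3, a secreted binder of activins, rose at all 3 times (3.34, 2.56 and 1.85), with its highest value at 24 h as for Inhbb, and so did the co-repressor Tgif1 (1.14, 0.78 and 1.05). The follistatin-like gene Fstl1 was called at 36 h and 48 h (1.17, 2.15 and 2.77). The SMAD co-repressor Ski was called at 24 h and 48 h (0.81, 0.21 and 0.40) and its relative Skil at no time (0.25, -0.19 and -0.34). Of 18 known targets, 11 rose at 24 h, 12 at 36 h and 14 at 48 h. Timp1 (a metalloproteinase inhibitor) had 7.33, 6.53 and 6.74, Acta2 (smooth muscle actin) 4.32, 4.26 and 4.60 and Col5a2 (a collagen V chain) 1.40, 2.68 and 4.17, each called at all 3 times. Cdkn1a, the cell cycle inhibitor p21, was called at none (1.26, 0.74 and 0.23). Thbs1 had its highest fold at 24 h, as Tgfb1, Tgfb2 and Tgfb3 did, and Col5a2 and Fbn1 had theirs at 48 h. At 36 h the sections were far apart in several of these genes, with 48.2 ± 38.3 CPM (SD, n = 2) for Acta2, 15.1 ± 11.5 for Col5a2 and 13.7 ± 10.99 for Fstl1. The whole myofibroblast list (Acta2, Col1a1, Col1a2 and Col3a1) is among the 18 targets, so the target counts and that list share genes. The part of the marker lists in these changes was not tested.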

How the data were processed

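Visium 3' libraries came from 11 sections of mouse liver. The authors aligned reads to mm10 with Space Ranger 1.0.0, per the labels and methods, and deposited raw UMI counts for 31053 genes and 4992 barcodes a section. All 11 sections carry the same barcodes by array design. The deposited counts held no normalisation. Whether counting used strand is not given in the sources used here.

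Following the study's methods, a spot under the authors' tissue mask was used if it had 800 genes or more and no more than 20% mitochondrial UMIs, and counts were summed per section, or per section and spot class. Sections of a group differed by more than sampling noise (chi-square per degree of freedom of 39.7 to 212). Sums were tested with edgeR 4.0.16 in R 4.3.3 (filterByExpr, TMM, robust quasi-likelihood fit, two-sided), all sections in 1 fit, with time as group, and for spot classes with section as a block. P-values were adjusted by Benjamini-Hochberg over all genes tested and called under 0.05. Scores were means of ln(1 + UMIs per 10000) after thinning spots to 2000 UMIs, and the scored genes were left out of the class tests. Steps were tested on simulated data. Figures were drawn with matplotlib 3.10.9.

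The members and gene lists were chosen with earlier results of these data known. All 10 members and Inhbc are named. Of the pathway list, up to 4 genes a sublist were eligible, those called in most comparisons with 0 h and then by the log2 fold change at 48 h, with the uncalled gene of highest level. 1 gene that this rule names is not reported here. Per member called over time, the 3 genes of highest correlation are named. Alternatives were total-count and RLE scaling, DESeq2 1.42.0, no low-count filter, all spots under the mask, the 2 times compared alone, other spot classes and scores, each section left out, and the section letter as a block. Promoters came from RefSeq (GRCm38.p6) and gene positions from GENCODE M21, the same build as the counts.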

Additional observations from a re-analysis of the deposited data

Results flagged for a closer look

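For 16 results the difference between hepatocyte-poor and hepatocyte-rich spots after injury differed from that in uninjured sections, by the interaction term of the edgeR fit. At 24 h the log2 difference exceeded that at 0 h by 1.35 for Tgfb1, 1.35 for Inhba and 1.93 for Inhbb, and for Inhbe it was -1.89 relative to 0 h. At 36 h the values were 1.26 for Tgfb1, 0.77 for Tgfbr1, 1.33 for Inhbb and -1.55 for Inhbe. At 48 h they were 1.80 for Tgfb1, 1.84 for Tgfb2, 2.25 for Tgfb3, 1.04 for Tgfbr1, 0.61 for Tgfbr2, 0.47 for Tgfbi, 1.81 for Inhbb and -2.21 for Inhbe. In uninjured sections the hepatocyte-poor spots were 1.91 to 2.37 times as high for pericentral markers as the hepatocyte-rich ones. At 24 h they were still higher, at 1.33 to 1.57 times. The ratio was 0.715 to 1.02 at 36 h and 0.503 to 0.736 at 48 h. The part of this in the differences was not tested. In the 48 h sections no gene had a section set apart from the other 3 by the gap test used, which was applied to the 10 genes in that group of 4 alone.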

How the results depend on the processing

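Of the 59 member differences that passed the threshold, 38 passed it under every alternative run for them, and none reversed: of 929 recalculated values, 857 stayed past the threshold with the same direction and 72 fell short of it. A further 36 member differences passed it under some alternative alone (79 of 581 values). Total-count scaling moved the median of all genes by up to 0.54 (log2, 48 h against 0 h) and called 8 of the 10 genes at 36 h against 0 h, all higher, in place of 1. At 48 h it called 7, all higher, in place of 4 higher and 1 lower. In hepatocyte-poor against hepatocyte-rich spots it called 1 gene at 0 h, 8 at 24 h and 8 at 36 h, and 7 for the difference at 36 h minus that at 0 h. DESeq2 called 2 at 36 h against 0 h. Scores on all UMIs called 2 genes at 0 h and 5 at 24 h, and without a low-count filter 1 gene was called at 0 h. With only the sections of the 2 times in the fit, edgeR called 0 members in both steps, 24 h to 36 h and 36 h to 48 h, with 3 and 2 at an unadjusted p under 0.05, and DESeq2 on all sections called 3 and 2. Over all genes these fits called 1 and 0 in place of 2315 and 452. Total-count scaling called 7506 genes at 36 h against 0 h in place of 4329, DESeq2 1224 for 48 h against 36 h, and between the spot classes at 0 h the lowest 20% of spots and scores on all UMIs called 293 and 1222 genes in place of 516.

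Of the 36 differences called under some alternative alone, some changed sign. Tgfbr2 at 36 h against 0 h became 0.34 with total-count scaling. Leaving out 1 section in turn, the log2 values at 36 h against 0 h ran from -0.52 to 1.90 for Tgfb3, -0.69 to 2.70 for Inhbb (both lowest without 36 h B and highest without 36 h A) and -0.0826 to 0.20 for Tgfbi (below 0 without 36 h B, and -0.0388 without 0 h 2). Those at 48 h ran from -0.0917 to 0.15 for Tgfbi (below 0 without 0 h 2, and also without 0 h 3, 48 h C and 48 h D, at -0.0370, -0.0761 and -0.00721) and from -0.00345 to 0.45 for Smad7 (below 0 without 0 h 4). Between spot classes they ran from -0.0728 to 0.33 for Tgfbr2 and -0.0709 to 0.26 for Tgfbi at 24 h (below 0 without 24 h B), and from -0.22 to 1.70 for Tgfb2 and -0.30 to 0.48 for Inhbb at 36 h (below 0 without 36 h B). The cause was not tested.

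Sections share letters. Over all genes tested, deviations of the A sections from the mean of A and B correlated at 0.29 between 24 h and 36 h. The values were -0.17 for 24 h and 48 h and -0.09 for 36 h and 48 h. They were not positive throughout, so the letters were not taken as pairs. With the letter as a replicate block, on the A and B sections of the injured times, 0, 2 and 0 members were called for 24 h to 36 h, 24 h to 48 h, and 36 h to 48 h in turn (82, 830 and 0 genes in all). Without the block the same 6 sections, an alternative chosen after seeing the data, gave 0, 2 and 0 (118, 1106 and 0 genes). In both fits 3, 5 and 2 members had an unadjusted p under 0.05 by edgeR.

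Leaving out each section in turn gave 5 to 7 members called at 24 h against 0 h, 0 to 5 at 36 h and 3 to 6 at 48 h. It gave 1 to 3 for 36 h against 24 h, 2 to 5 for 48 h against 24 h and 0 to 2 for 48 h against 36 h. Between spot classes it gave 0 to 1 at 0 h, 3 to 4 at 24 h, 3 to 6 at 36 h and 10 to 10 at 48 h, and for the differences from 0 h 3 to 5 at 24 h, 3 to 5 at 36 h and 7 to 8 at 48 h. For zonation it gave 4 to 6. Where 1 section was left at 24 h or 36 h, it was assumed to vary like the other groups. The planned comparison of spots under the 1st percentile of uninjured hepatocyte scores with spots at least 3 steps away was not run, since at 24 h and 36 h no section, and at 48 h 1, had 20 such spots. Depth limits Tgfb2 most, at 20 to 140 UMIs a section.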
